A study of Homo sapiens with 6 samples.

Results

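Binding of the DEK protein was examined at 7 leukocyte adhesion genes in U937 cells, namely the integrin subunit genes ITGAL, ITGAM, ITGAX and ITGB2 and the ligand genes ICAM1, ICAM2 and ICAM3. The 7 genes were chosen by name, among 20163 protein-coding genes on chromosomes 1 to 22, X and Y, and every deposited DEK peak that overlapped the gene body or the 10 kb on each side of it was taken. U937 is an established human cell line of the myeloid lineage. DEK is an abundant chromatin protein and an oncogene product, known also as part of a fusion with NUP214 in acute myeloid leukemia. Chromatin immunoprecipitation followed by sequencing (ChIP-seq) collects DNA fragments through the protein bound to them, and stretches where they pile up are called as peaks. The samples are 2 independent precipitations with a DEK antibody (Abcam, ab-74975), 2 with an antibody against H3K4me3 (Abcam, ab-8580) and 2 samples of non-precipitated chromatin, all from U937 cells in the same medium with no treatment in the labels. The peak lists of the DEK and H3K4me3 precipitations were analysed.

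Leukocyte integrins are surface receptors made of an alpha and a beta subunit. The product of ITGB2 is the shared beta subunit, which pairs with the product of ITGAL to form LFA-1, with that of ITGAM to form Mac-1 and with that of ITGAX to form a further receptor of monocytes, macrophages and dendritic cells. The ICAM proteins, members of the immunoglobulin superfamily, are their ligands on other cells, and the pairs carry the firm adhesion of leukocytes to endothelium and to each other. H3K4me3 is a histone mark found at active promoters. The choice of these genes by name did not use it, although earlier results of these data were known.

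The DEK lists differed widely in length. Replicate 1 had 15017 peaks with a median of 47 tags (sequenced fragments) and replicate 2 had 152779 with a median of 20. In the column of false discovery rates, all peaks of replicate 1 carry 100%, and those of replicate 2 carry 0.74% to 16.67%. The lists hold no total of reads and the methods of the study state only a minimum for all samples, so that the depth of each sample is unknown here. With 1 value per gene and precipitation, the spread between replicates was not estimated and no test was made. H3K4me3 was also read at marker genes, as a description that does not name cells. A peak lay within 1 kb of a start in at least 1 list for 8 of 8 myeloid genes (5 in both lists). The same held for 1 of 4 T cell genes (0 in both), 0 of 4 erythroid genes and 2 of 4 hepatocyte genes (1 in both, TTR). Over all protein-coding genes, 58.6% had the mark in both lists, so that the 5 of 8 myeloid genes were near that share. The share for at least 1 list is not given here. B cell genes carried the mark as well, PAX5 in both lists and CD79A in that of replicate 1, while MS4A1 had it in neither.

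Stretches of sequence chosen from the peaks of replicate 1 alone are shown here on the strand of each gene, 5′ to 3′, from GRCh37. Of the peaks used, only that at ICAM1 overlapped a replicate 2 peak. For ICAM1, ITGAM and ICAM3 they are the 250 bases just before the outermost annotated transcription start site (TSS), since these are the 3 genes with a TSS under a peak of replicate 1. For ITGB2 it is the 151 bases around the summit of the peak with the highest score that replicate 1 had at any of the 7 genes. Capitals mark the letters of the motifs searched on both strands, of which none overlaps another in these windows. For PU.1, a regulator of myeloid genes, the core GAGGAA was used. The core for SP1, a factor of GC-rich promoters, was GGGCGG. For RUNX factors the letters TGTGGT were searched. The motif of USF1 was the E-box CACGTG. For NF-kB, the letters GGAAATTCC known from the ICAM1 promoter were taken. A match on the opposite strand appears as the reverse complement.
ICAM1 promoter, chr19:10381519-10381768, plus strand: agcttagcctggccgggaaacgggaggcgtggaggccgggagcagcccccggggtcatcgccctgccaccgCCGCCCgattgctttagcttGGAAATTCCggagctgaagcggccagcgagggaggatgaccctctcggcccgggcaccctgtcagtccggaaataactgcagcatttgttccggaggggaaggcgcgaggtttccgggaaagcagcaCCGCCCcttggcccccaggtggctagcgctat
ITGAM promoter, chr16:31271038-31271287, plus strand: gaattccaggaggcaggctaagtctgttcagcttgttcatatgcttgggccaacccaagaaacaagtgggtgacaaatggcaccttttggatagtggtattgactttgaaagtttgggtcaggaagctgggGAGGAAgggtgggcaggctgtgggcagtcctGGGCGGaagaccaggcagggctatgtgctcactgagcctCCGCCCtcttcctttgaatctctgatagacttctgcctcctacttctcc
ICAM3 promoter, chr19:10450338-10450587, minus strand: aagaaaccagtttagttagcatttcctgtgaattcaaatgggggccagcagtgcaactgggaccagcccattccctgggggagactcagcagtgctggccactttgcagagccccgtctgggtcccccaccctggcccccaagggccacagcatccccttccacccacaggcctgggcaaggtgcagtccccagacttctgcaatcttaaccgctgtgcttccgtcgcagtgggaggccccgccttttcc
ITGB2 summit, chr21:46346344-46346494, minus strand: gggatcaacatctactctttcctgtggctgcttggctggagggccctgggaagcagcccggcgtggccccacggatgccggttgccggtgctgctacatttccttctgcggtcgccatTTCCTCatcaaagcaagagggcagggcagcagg

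In these windows the ICAM1 promoter held the NF-kB letters, which begin at position -159 from the TSS, and 2 copies of the SP1 core. The ITGAM promoter held GAGGAA, beginning at position -119, and 2 copies of the SP1 core. The ICAM3 promoter held none of the 5 motifs, and the ITGB2 window held the PU.1 core on the opposite strand. For the count over all 7 genes, each promoter was the 250 bases before the outermost annotated TSS. At ITGB2 no H3K4me3 peak of either list lay there, and the marked TSSs were farther inside the gene. GAGGAA was present in 3 promoters (ITGAL, ITGAM and ITGB2) and in 23.2% of the 20140 promoters of the same length that could be read. The SP1 core was present in 4 (48.8% of all promoters), the RUNX core and the USF1 motif in ICAM2 (10.4% and 7.17%) and the NF-kB letters in ICAM1 (0.328%). These matches describe the letters only.

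Both precipitations had DEK peaks near most of the 7 genes, but at the same position only at ICAM1. Replicate 1 had 6 peaks in all, 1 at each gene except ITGAL, against 32.6% of protein-coding genes with a replicate 1 peak in the same window. Replicate 2 had 53 peaks, with between 2 and 16 at each of the 7 genes, where 90.9% of protein-coding genes had a replicate 2 peak. A shared interval, that is an overlap of at least 1 bp between the lists, was found at 1 of 7 genes and at 15.7% of all, so that the share among the adhesion genes was near the background. The windows of the 7 genes were of ordinary size, with a median of 47866 bp against 47219 bp over all protein-coding genes. At a score of at least 100, where the score of a peak is its p-value taken as -log10 and multiplied by 10, 2 of the 7 genes kept a replicate 1 peak, ITGAX and ITGB2. The share over all protein-coding genes at this score is not given here.

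Close to the TSS, with distances taken from the nearest edge of a peak, the lists differed in which genes they marked. Replicate 1 had a peak within 1 kb of an annotated TSS of ITGAM, ICAM1 and ICAM3, or 3 of 7 genes, against 10.2% of protein-coding genes. Replicate 2 had such a peak at ITGAL, ITGB2, ICAM1, ICAM2 and ICAM3, or 5 of 7, against 62.4%. With the middle of a peak in place of its edge, 5 in place of 6 genes had a DEK peak within 1 kb in at least 1 list. No share over all protein-coding genes is given for these counts. ITGAX had none in either list. An H3K4me3 peak in both lists lay within 1 kb of a TSS at 6 of the 7 genes (58.6% of protein-coding genes). The exception was ITGAL, where only the list of H3K4me3 replicate 1 had a peak there.

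**Figure D1:**
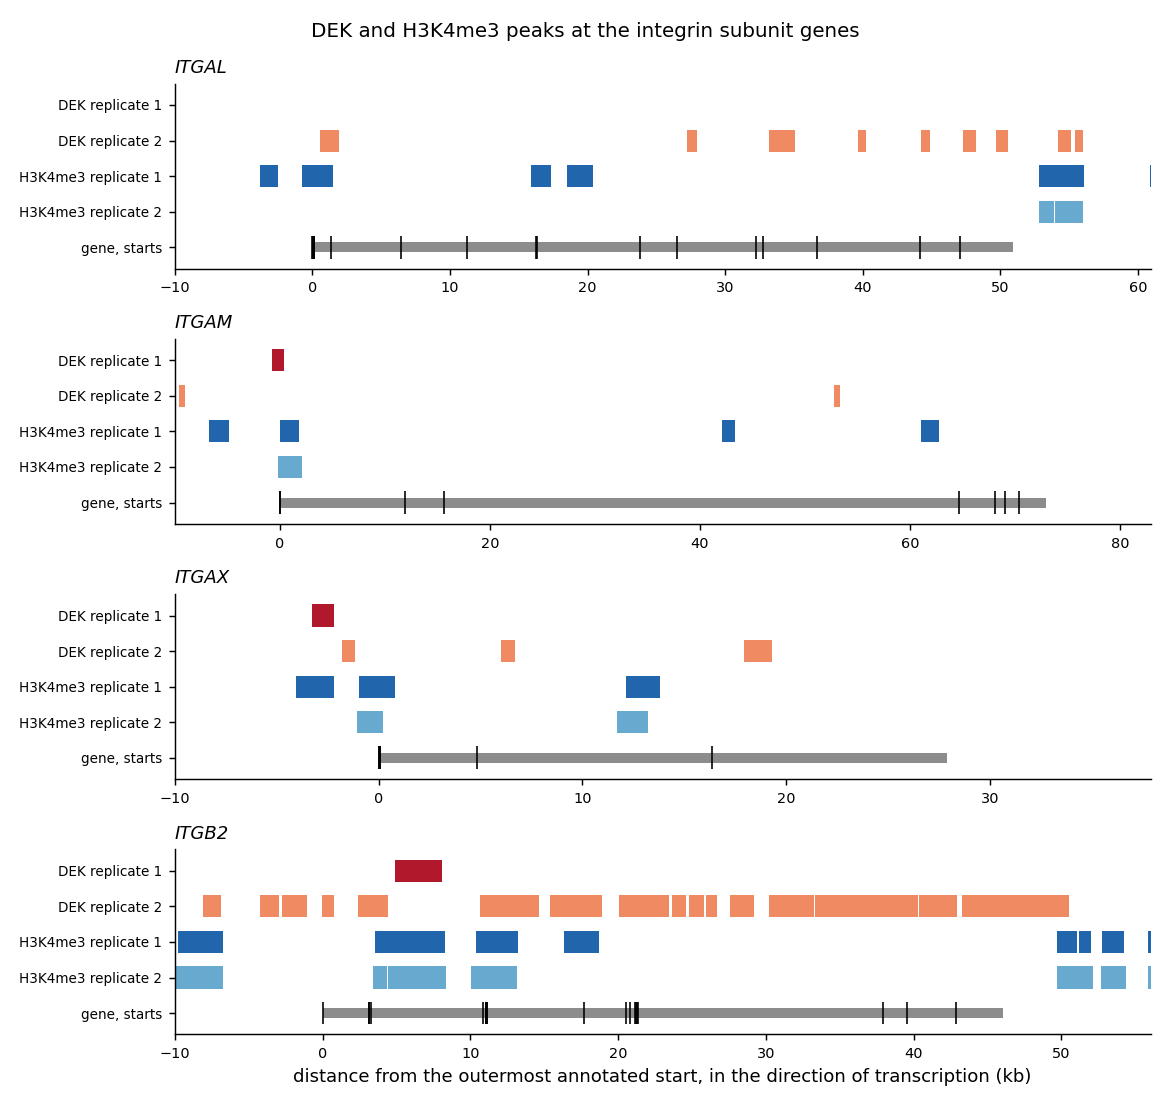
Peaks at ITGAL, ITGAM, ITGAX and ITGB2. The x axis is the distance in kb from the outermost annotated start in the direction of transcription, coloured blocks are the peaks of the 2 DEK and 2 H3K4me3 lists, the grey bar is the gene body and black ticks are annotated starts. The replicate 1 peaks sit at the start of ITGAM, upstream of ITGAX and in a 6235 bp gap between replicate 2 peaks at ITGB2.

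ITGAL encodes the alpha subunit of LFA-1, the main integrin of lymphocytes and also present on monocytes. It spans chr16:30483979-30534888 on the plus strand and was the gene without any replicate 1 peak. Its 9 replicate 2 peaks held 16 to 53 tags (251 in all) and covered 12.3% of the window. The peak closest to its outermost TSS, chr16:30484514-30485924, held 49 tags with a score of 67.8 and lay over a TSS 1343 bp inside the gene. It overlapped the H3K4me3 peak of replicate 1 at the TSS. The replicate 2 peaks with the highest scores were farther inside, at chr16:30517195-30519037 (53 tags, score 180) and chr16:30531234-30532238 (32 tags, score 175), and neither met an H3K4me3 peak. The remaining overlaps with H3K4me3, 2 of them, were past the end of the gene, under the H3K4me3 peaks that cover the TSS of ZNF768.

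ITGAM, the alpha subunit of the phagocyte receptor Mac-1, showed the most separate pattern in the lists. Its gene body spans chr16:31271288-31344213 on the plus strand. The replicate 1 peak, chr16:31270580-31271698, lay over the TSS with its summit at -122 bp, and the GAGGAA of the printed promoter begins 3 bases after that summit. It held 56 tags, its score was 64.1, and it was enriched 7.83-fold over the local background. H3K4me3 peaks of both replicates covered part of it, 33.8% and 50.8% of its width. Replicate 2 had 2 small peaks in the window, with 18 and 13 tags, and the nearer lay 8339 bp from the peak of replicate 1. By the density of replicate 2 peaks, 2.15 per 100 kb of window, ITGAM was at the 14.9th percentile of protein-coding genes, and the next 1 Mb on each side of its window had 9.75 per 100 kb.

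ITGAX, which encodes the alpha subunit typical of dendritic cells and macrophages, is the next integrin gene on the same arm (chr16:31366455-31394320, plus strand). The replicate 1 peak lay upstream, at chr16:31363206-31364288, and held 55 tags with a score of 104. Its middle was at -2708 bp from the outermost TSS of ITGAX and 142 bp from the start of an unnamed long noncoding RNA. An H3K4me3 peak of replicate 1 covered 96.7% of it, while that of replicate 2 covered 0%. The 4 replicate 2 peaks held 14 to 20 tags, at or below the median of their list, and none overlapped H3K4me3. The peak closest to the TSS, with 20 tags, lay between the replicate 1 peak and the gene, 382 bp from the former. At the TSS itself, H3K4me3 was present in both lists and DEK in neither.

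ITGB2, whose loss causes leukocyte adhesion deficiency, had more replicate 2 peaks than the other 6 genes. It spans chr21:46305868-46351904 on the minus strand and has 23 annotated TSSs, with the densest group of them about 11 kb inside the outermost. The 16 peaks of replicate 2 held 19 to 318 tags (1561 in all) and together covered 63.6% of the window. The outermost TSS lay under a small peak, chr21:46351157-46351949 (29 tags, score 109), and the inner group of TSSs under chr21:46337269-46341248 (133 tags, score 211), which H3K4me3 marked in both lists. The 2 with most tags were toward the 3′ end. The first, chr21:46301372-46308615 (318 tags, score 1173), had its middle beyond the end of the gene and overlapped H3K4me3 in both lists. The second, chr21:46311626-46318562 (313 tags, score 1493), lay inside the gene and met no H3K4me3. Its score was at the 99.97th percentile of the list. Of the 16 peaks, 12 had their middle in an intron and 5 overlapped H3K4me3. The density was 24.2 replicate 2 peaks per 100 kb in the window and 24.4 in the next 1 Mb on each side, a part of distal chromosome 21 with many peaks. By number of peaks, the window thus had no more for its length than its surroundings. The widths and tags of the peaks were not compared with those of the surroundings.

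The replicate 1 peak at ITGB2 was placed where replicate 2 had none. It spanned chr21:46343788-46346984, in an intron, and held 200 tags at an enrichment of 9.48-fold. The score of 309 put it at the 97.5th percentile of the list. The neighbouring replicate 2 peaks lay 2540 bp and 500 bp away, with a gap of 6235 bp between them. H3K4me3 peaks of both replicates covered 100% of it. The closest TSS of ITGB2 was 1649 bp from its edge, and the antisense gene ITGB2-AS1 runs across it on the other strand. ChIP-seq peaks have no strand, so that the binding cannot be assigned to either gene.

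**Figure D2:**
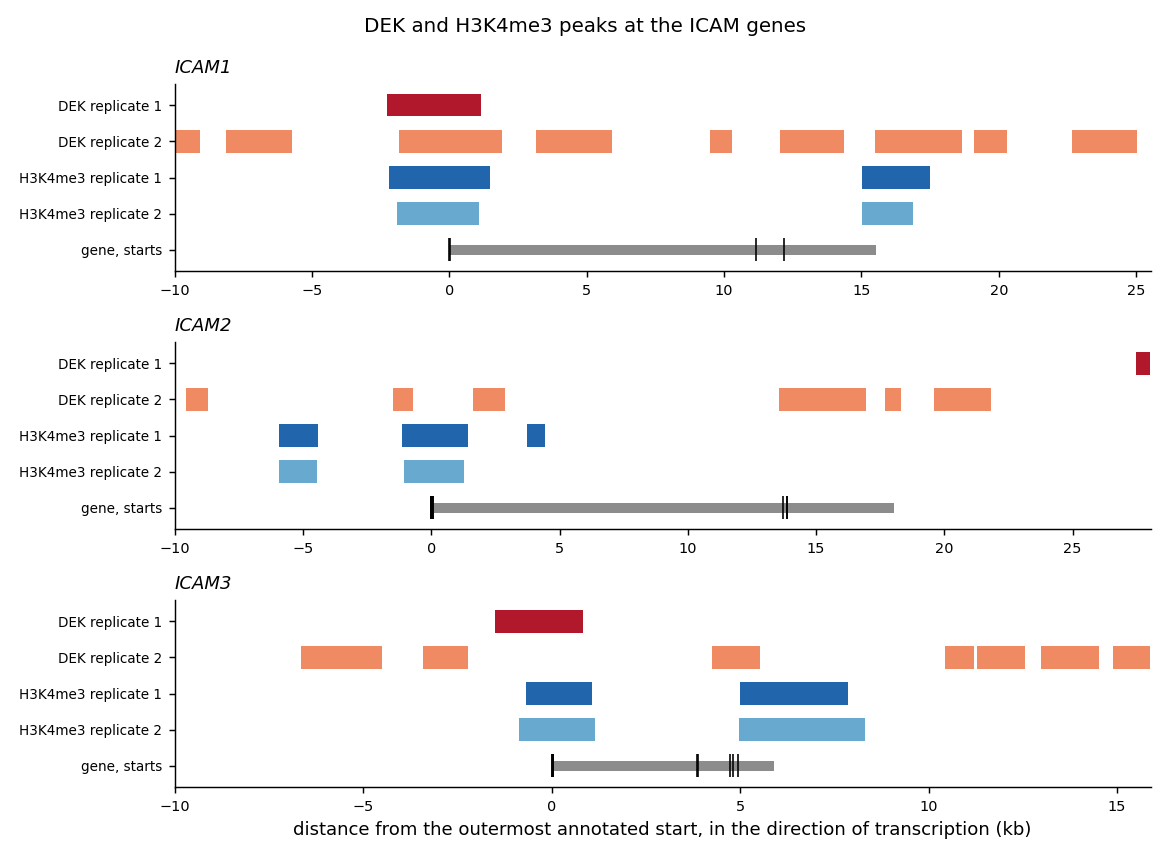
Peaks at ICAM1, ICAM2 and ICAM3, drawn as for the integrin genes, with the distance from the outermost start in kb on the x axis and 1 row for each of the 4 peak lists. Peaks of all 4 lists lie over the start of ICAM1, and at ICAM3 the replicate 1 peak stands between replicate 2 peaks.

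ICAM1, the inflammation-inducible ligand of LFA-1 and Mac-1, was the gene with a shared interval. The gene body spans chr19:10381769-10397291 on the plus strand. The replicate 1 peak, chr19:10379493-10382924, held 289 tags, scored 73.2 and was enriched 4.29-fold. The replicate 2 peak, chr19:10379932-10383678, held 195 tags, scored 399 and was enriched 4.65-fold. Both were rich in tags for their lists (98.9th and 99.6th percentile), whereas by score the former was at the 55.7th percentile and the latter at the 99.2nd. The shared interval of 2993 bp made up 87.2% of the replicate 1 peak and 79.9% of the replicate 2 peak, and its middle lay at -341 bp from the TSS. H3K4me3 peaks covered 100% of it in replicate 1 and 97.5% in replicate 2. The summits lay at -90 bp and -504 bp, and the NF-kB letters of the printed promoter begin at position -69 from the summit of replicate 1. With a score of at least 100 required in both lists the interval was lost, since its replicate 1 peak scored lower.

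Replicate 2 had 8 further peaks in the window of ICAM1, with 30 to 169 tags, and together its peaks covered 55.5% of the window. Among these, chr19:10397244-10400420 (126 tags) lay over the TSS of ICAM4, a ligand gene of red cells, and over H3K4me3 in both lists. Another, chr19:10400858-10402082 (40 tags), lay over a TSS of ICAM5, a ligand gene of neurons, without H3K4me3. The peak chr19:10393800-10396147 (71 tags) covered starts of ICAM1 and of the antisense long noncoding RNA LIMASI. Replicate 1 had no peak at ICAM4 or ICAM5 within 10 kb.

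ICAM2 is a ligand of LFA-1 that endothelial cells and platelets carry without stimulation. The gene spans chr17:62079954-62097994 on the minus strand. Its replicate 1 peak was the weakest of the 6, chr17:62069790-62070513 with 33 tags and a score of 50.6, where 50 was the lowest score in the list. It lay beyond the 3′ end, crossing the border of the 10 kb window, and met no H3K4me3 and no replicate 2 peak. Replicate 2 had 6 peaks with 16 to 96 tags. The 2 on either side of the outermost TSS were chr17:62098691-62099487 (25 tags, 697 bp upstream at its edge) and chr17:62095116-62096350 (56 tags, score 277), while H3K4me3 in both lists lay over the TSS between them and reached the former. The highest score, 314, was that of chr17:62081044-62084434 over the inner TSSs, without H3K4me3.

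ICAM3, the ICAM of resting leukocytes, had peaks of the lists close to each other without overlap. It spans chr19:10444452-10450337 on the minus strand. The replicate 1 peak, chr19:10449519-10451855, lay over the TSS with its summit at -53 bp. It held 136 tags, scored 80.8 and was enriched 4.77-fold. H3K4me3 covered 64.7% of it in replicate 1 and 71.7% in replicate 2. Replicate 2 had 7 peaks with 25 to 103 tags, of which 1 had its middle in the gene, 2 upstream and 4 downstream. The peak with 103 tags, chr19:10432859-10435446, lay downstream, over a start of the neighbouring gene RAVER1. The nearest of the 7 to the replicate 1 peak, chr19:10452549-10453743 (61 tags, score 162), lay 694 bp upstream of it. On the other side the nearest lay 3438 bp from the replicate 1 peak, so that the outermost TSS stood in a gap of 6467 bp. The replicate 2 peak inside the gene, chr19:10444806-10446081 (56 tags, score 129), covered inner TSSs of ICAM3 and met H3K4me3 peaks that extend from the starts of RAVER1 and an unnamed gene at its 3′ end.

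**Figure D3:**
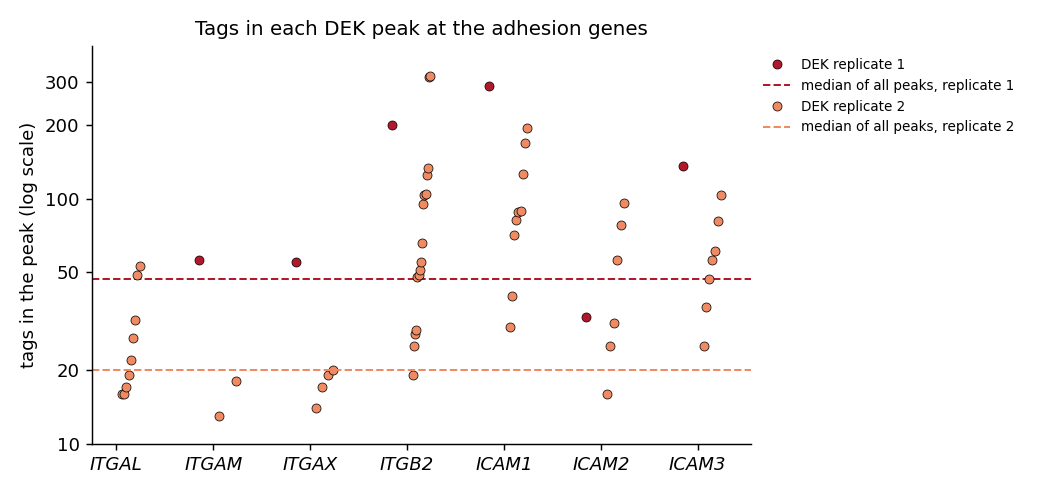
Tags in each DEK peak at the 7 genes, on a log scale, with 1 point per peak and dashed lines at the median of all peaks in each list (47 in replicate 1 and 20 in replicate 2). Most replicate 2 peaks at ITGAL, ITGB2, ICAM1, ICAM2 and ICAM3 lie above the line of their list, and at ITGAM and ITGAX none does.

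The overlap of DEK with H3K4me3 was counted over all peaks at the 7 genes. Of the 6 replicate 1 peaks, 5 overlapped an H3K4me3 peak of at least 1 list, where 51.3% of all replicate 1 peaks did. Of the 53 replicate 2 peaks, 12 did, where the share over the list was 11%. The 12 were 5 at ITGB2, 3 at ITGAL, 2 at ICAM1 and 1 each at ICAM2 and ICAM3. They include peaks over starts of neighbouring genes, such as SLX9 and ICAM4. All peaks counted here reached within 10 kb of a gene by choice. Their median widths were 1728 bp in replicate 1 and 1276 bp in replicate 2, against 1016 bp and 697 bp over the lists. The part of position and width in these shares was not tested. Of the 5 replicate 1 peaks that were not shared, 3 lay within 1 kb of a replicate 2 peak (at ITGAX, ITGB2 and ICAM3), against 12.5% of the 10837 unshared replicate 1 peaks on these chromosomes. The median distance was 694 bp for the 5 and 5885 bp for all. Replicate 2 peaks were dense around ITGB2 and ICAM3 (24.2 and 27.0 per 100 kb), and the part of this density in the distances was not tested.

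Tags and widths also set the genes apart in replicate 2. The median peak at the 7 genes held 49 tags and was 1276 bp wide, while the medians of the list were 20 tags and 697 bp. The medians by gene ran from 15.5 tags at ITGAM and 18 at ITGAX through 22 at ITGAL, 43.5 at ICAM2, 56 at ICAM3 and 60.5 at ITGB2 to 88 at ICAM1. The ranges of neighbours in this order overlapped. Farther apart, the 2 peaks at ITGAM held fewer tags than any peak at ITGB2, ICAM1 or ICAM3. The density was highest in the window of ICAM3 (27.0 per 100 kb, at the 92.0th percentile of protein-coding genes), followed by ICAM1 (25.3) and ITGB2 (24.2). The median of all protein-coding genes was 9.20. At ICAM3 the gene body is 5886 bp of a window of 25886 bp, and 1 of its 7 replicate 2 peaks had its middle in the gene. The density there is thus mostly that of the flanks, which hold starts of RAVER1. ICAM1 and ICAM3 lie in the same part of chromosome 19, where the next 1 Mb on each side had 18.9 and 18.7 per 100 kb. Each of these flanks includes the other gene, and the flanks of ITGAL, ITGAM and ITGAX likewise include each other's genes.

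**Figure D4:**
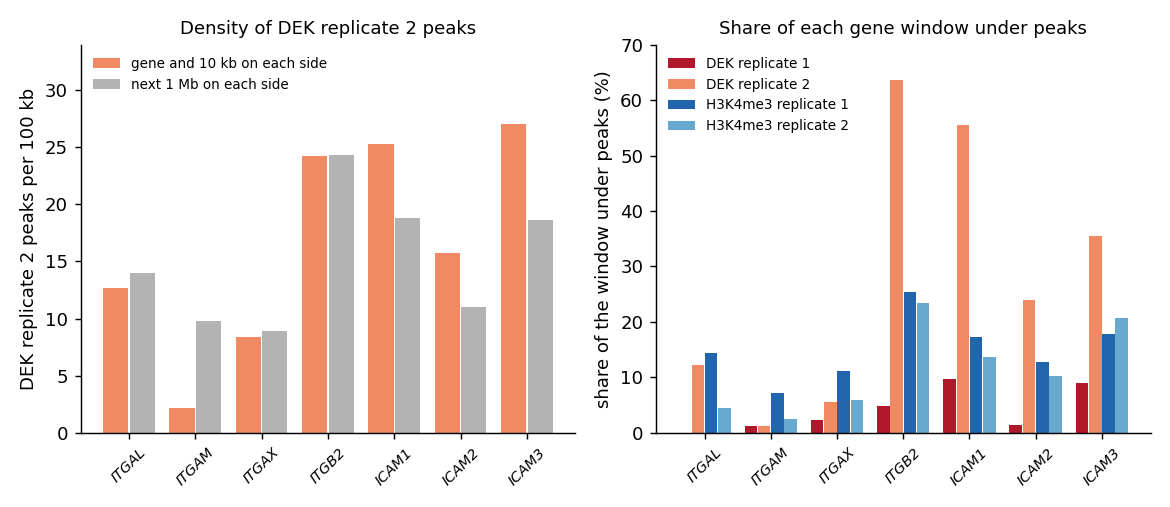
Left, replicate 2 peaks per 100 kb in the window of each gene (gene and 10 kb on each side, orange) and in the next 1 Mb on each side (grey). Right, the share of each window in percent under the peaks of each list, which for replicate 2 runs from 1.22% at ITGAM to 63.6% at ITGB2.

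A list of other genes of leukocyte adhesion was read in the same way, and 20 of them were found in the annotation (PECAM1 was not analysed here). Replicate 1 had a peak in the window of 10 of the 20 (32.6% of protein-coding genes) and replicate 2 in that of 19, a share near the 90.9% over all. A shared interval was present at 5 of the 20 (15.7% over all), of which 4 are integrin subunit genes outside the beta-2 family and none is an ICAM gene. At ITGA4, the alpha subunit of VLA-4, the shared interval chr2:182321178-182322632 had its middle at -24 bp from a TSS, with 109 tags in replicate 1 and 57 in replicate 2. At APBB1IP, an adaptor that links RAP1 to talin, the shared interval chr10:26726711-26728272 had its middle 137.5 bp downstream of a TSS, with 245 and 82 tags. The intervals of ITGB7 (37 and 13 tags) and ITGA5 (83 and 31 tags) also came within 1 kb of a TSS by their nearest edge, although the middle of the latter was at -1379.5 bp, and that of ITGB1 (111 and 64 tags) was centred 11958 bp into the gene from the nearest TSS. ITGAD, the beta-2 partner next to ITGAX, had 1 peak in replicate 1 with 117 tags, 5 in replicate 2 and no H3K4me3 at its TSSs. The integrin activators TLN1 and FERMT3 had no replicate 1 peak and 5 and 9 replicate 2 peaks. In tags summed over the window, the genes most like ICAM1 (289 and 890 tags) were DENND4C (283 and 942) and DENND3 (271 and 906), at Euclidean distances of 0.0872 and 0.0959 in log2(tags + 1) over the 2 precipitations.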

How the data were processed

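Per the labels and the methods of the study, reads of each precipitation were aligned to hg19 with Bowtie2, and peaks were called with MACS 1.4.1 at default parameters, separately in each DEK precipitation, with non-precipitated chromatin as the control of the study. The deposited DEK lists have no header and hold, per peak, the position, a count of tags that the authors did not normalize, a score (-log10 of the p-value, multiplied by 10), a fold enrichment as a ratio over the local background, and a false discovery rate in percent. The deposited H3K4me3 lists hold positions only, and whether their starts count from 0 or 1 is not given in the sources used here.

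Genes were taken from GENCODE 44 in GRCh37 coordinates, which are those of hg19 for the autosomes, X and Y. A peak counted at a gene when it overlapped the gene body extended by 10 kb on each side by at least 1 bp. TSSs were the starts of all annotated transcripts. A peak counted as within 1 kb of a TSS when any base of it was. Other distances to a TSS run from the middle of a peak unless said otherwise, and are positive in the direction of transcription. Percentiles are ranks within a list or among 20163 protein-coding genes. The members and lists were chosen with earlier results of these data known. Genes named are the 7 members, the fixed adhesion and marker lists, genes with a start at a peak and the 2 genes nearest to a member with a shared interval in summed tags. Python 3.11.15, NumPy 2.4.6, pandas 2.3.3 and Matplotlib 3.10.9 were used. Values of 1 adhesion gene and 1 B cell marker are not reported here. The overlap code was tested on simulated intervals, where 3 of 3 checks passed.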

Additional observations from a re-analysis of the deposited data

How the results depend on the processing

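Of 45 alternative values over 9 counts, 36 stayed within 1.5 times the value reported. The count of replicate 2 peaks (53) became 33 in the gene bodies alone, 133 with 50 kb on each side, 26 at a score of at least 100 and 20 with replicate 2 cut to the length of replicate 1. The gene bodies alone kept a replicate 1 peak at 4 genes, in place of 6. A score of at least 100 left 2 replicate 1 peaks at 2 genes and 0 shared intervals, and 50 kb on each side gave shared intervals at 2 genes. Leaving out a DEK precipitation gave 3 to 5 genes with a peak within 1 kb of a TSS (6 with both), and 6 to 7 with a peak in the window. Over all protein-coding genes, replicate 1 alone had 10.2% within 1 kb and 32.6% in the window, and replicate 2 alone had 62.4% and 90.9%. For the other settings in this paragraph, except H3K4me3 in both lists, no share over all protein-coding genes is given here. Leaving out an H3K4me3 precipitation gave 6 to 7 genes marked at a TSS and 14 to 17 DEK peaks under the mark. Requiring H3K4me3 in both lists, chosen after seeing the data, gave 6 genes and 14 peaks. No paired analysis was possible because no result comes from a test. The depth of each sample is unknown beyond a stated minimum, so a missing peak, as in replicate 1 at ITGAL, is not evidence that DEK was absent.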

Other observations

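Taken over the middle base and 150 bp on each side, the DEK peaks at the 7 genes had a median GC content of 50.5% in replicate 1 (6 peaks) and 56.8% in replicate 2 (53 peaks), with 48.2% and 53.5% over the whole lists. The PU.1 core GAGGAA was present in 4 of the 6 replicate 1 windows (31.0% over the list) and in 15 of the 53 replicate 2 windows (15.0%). The ICAM2 peak, with the lowest score of the 6, is among the 4. A match there, at position -14 from the summit on the opposite strand, lies in a run of repeated TTCC. The RUNX core was present in 1 and 10 windows (27.7% and 20.5% over the lists), the SP1 core in 1 and 12 (11.2% and 22.01%), the USF1 motif in 0 and 2 (4.76% and 4.93%) and the NF-kB letters in 0 and 0 (0.335% and 0.137%). The NF-kB letters at ICAM1 lie outside the middle window of its peaks.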
